A study of Mus musculus with 27 samples.

Results

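The 9 genes described here carry or regulate salt reabsorption in the thick ascending limb of the loop of Henle and in the distal convoluted tubule: Umod, Slc12a1, Kcnj1 and Bsnd for the loop, Slc12a3, Pvalb and Trpm6 for the distal tubule, and the kinases Wnk1 and Wnk4. They were taken by symbol from the deposited expression table, where all 9 of the 9 were found among 19392 genes, and all 9 were among the 18188 genes tested. RNA-Seq had been run on the left kidneys of 27 wild-type C57BL/6 mice, 3 mice at each of 9 warm ischemia times. In every mouse, sham mice included, the right kidney was excised and the mouse was kept on a 37 °C plate. The left kidney was harvested 24 h after this surgery. The pedicle of the left kidney was not clamped in the sham group (0 min). It was clamped for 16, 18, 20, 22, 24, 26, 28 or 30 min in the 8 unilateral ischemia-reperfusion groups with contralateral resection (uIRIx). The sex and age of the mice were not given in the sources used here. The 0 min kidney was thus the only kidney of its mouse too, so the comparisons with 0 min hold the nephrectomy constant.

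The thick ascending limb reabsorbs sodium, potassium and chloride without water, which dilutes the urine and feeds the concentrating gradient of the medulla. The sodium-potassium-chloride cotransporter NKCC2 (Slc12a1) takes the ions up from the tubule fluid, the potassium channel ROMK (Kcnj1) returns potassium to it, and chloride leaves the cell through chloride channels that need the subunit barttin (Bsnd). The distal convoluted tubule reabsorbs sodium and chloride through the cotransporter NCC (Slc12a3) and magnesium through the channel TRPM6 (Trpm6), and the WNK kinases set the activity of both cotransporters through the kinases SPAK and OSR1.

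The promoter stretches of 4 of the genes are shown first, because they are the genes on which the results turn: the secreted loop protein, the loop cotransporter, the distal cotransporter and the distal calcium buffer. They were read from RefSeq promoter windows of GRCm38.p6, which hold 250 bases before and 50 after a gene's start, and 8 of the 9 genes had a window (Bsnd had none). Capitals mark a match to any of the motifs searched on both strands, which were the ERR motif AAGGTCA, the TATA box TATAAA and the AP-1 site TGANTCA. The Umod and Pvalb stretches are the 250 bases before the RefSeq start, the Slc12a1 stretch stops at 155 bases where the first annotated transcript begins, and the Slc12a3 stretch is 30 bases around its TATA box. RefSeq starts can differ from the gene positions given below, and the end of the Umod stretch lies inside the gene as annotated there.
Umod, chr7:119479263-119479512, minus strand: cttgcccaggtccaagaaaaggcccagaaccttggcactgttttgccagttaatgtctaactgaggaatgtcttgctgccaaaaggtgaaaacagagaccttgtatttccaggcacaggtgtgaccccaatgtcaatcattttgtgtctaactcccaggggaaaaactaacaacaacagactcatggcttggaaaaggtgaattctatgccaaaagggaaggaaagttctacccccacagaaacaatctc
Slc12a1, chr2:125152350-125152504, plus strand: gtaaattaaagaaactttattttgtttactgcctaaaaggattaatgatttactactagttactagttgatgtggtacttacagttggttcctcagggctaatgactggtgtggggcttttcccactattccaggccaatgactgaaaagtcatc
Slc12a3, chr8:94329164-94329193, plus strand: ctcctcccagccTATAAAgccaccctcagt
Pvalb, chr15:78206401-78206650, minus strand: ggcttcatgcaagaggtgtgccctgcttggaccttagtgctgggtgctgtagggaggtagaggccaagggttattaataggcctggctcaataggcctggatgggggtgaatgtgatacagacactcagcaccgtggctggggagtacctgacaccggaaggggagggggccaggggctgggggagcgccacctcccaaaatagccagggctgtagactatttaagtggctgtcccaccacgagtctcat

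In the windows of the 8 genes, the TATA box was found once, in Slc12a3, 32 bases before the RefSeq start. The ERR motif and the AP-1 site were in none of the 9 windows (Pvalb has more than 1). Of all 32851 RefSeq promoter windows, 13.6% held the TATA box, 4.72% the ERR motif and 7.81% the AP-1 site. A match of these letters describes the window and does not show a binding site.

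The values deposited were FPKM, fragments scaled to transcript length and to the mapped fragments of the kidney, so levels can be compared between genes per length. The summed FPKM ranged from 512453 to 554036 per kidney and 16498 to 16904 genes were above 0. Read counts were not used here. The steps between the lowest values of 65 genes with a single transcript placed the depth near 16.1 M (mega) fragments per kidney (95% interval of the slope 14.9 to 16.9), with single kidneys at 0.964 to 1.04 of that. This is an inference from the decimals. The kidney label was checked on its markers, and all 8 of the proximal tubule markers were above 1 FPKM in at least 1 kidney. A kidney at 30 min, replicate 3, stood apart in several of the 9 genes. Part of each left kidney was fixed for histology, and the sources used here do not say which part gave the RNA, and whether all kidneys were sampled in the same region was not tested. Of the clamped kidneys, 16 min replicate 3 had the lowest summed level of 5 injury markers (70.7 FPKM). Sham replicate 3 lay above it at 90.1 FPKM, beside 16.5 and 15.8 FPKM in the other sham kidneys. Values without 30 min replicate 3 are given where a result rests on it. In these bulk samples, fewer cells of a type and less RNA per cell cannot be told apart.

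In the sham kidneys the levels spanned a wide range. Umod was at 1302 FPKM ± 89 (SD, n = 3), followed by Slc12a1 at 342 ± 51.0, Slc12a3 at 216 ± 8.68 and Kcnj1 at 112 ± 7.51. Wnk4 was at 74.8 ± 10.4 FPKM, Wnk1 at 48.4 ± 2.74, Bsnd at 30.4 ± 5.71, Pvalb at 24.2 ± 7.59 and Trpm6 at 4.16 ± 0.287. The ranges of neighbours in this order did not overlap, except for those of Bsnd and Pvalb. At 28 min the order had changed, with Umod at 575 FPKM ± 143, Slc12a3 at 120 ± 18.0, Wnk4 at 53.6 ± 6.58, Slc12a1 at 32.3 ± 3.26 and Kcnj1 at 31.9 ± 3.16. Slc12a1, second of the 9 in sham kidneys, thus lay behind Slc12a3 and Wnk4 at 28 min, where its range overlapped that of Kcnj1, and Pvalb, at 0.327 FPKM, was the lowest of the 9.

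The question put by the series was how kidneys change as the ischemia time is lengthened. A gene was called differentially expressed (DEG) where limma gave it an adjusted p-value under 0.05, by Benjamini-Hochberg over all genes tested, together with a log2 fold change beyond 1 in either direction, on quantile-normalized log2(FPKM + 1). The kidneys at 28 and 30 min are called the late kidneys. This scale understates the change of genes at low FPKM. None of the 9 genes was a DEG against sham at 16, 18, 20, 22 or 24 min, when 2.25%, 3.06%, 2.51%, 3.29% and 3.12% of all genes were DEGs. At each of these times Trpm6 alone of the 9 passed the adjusted p-value, against 19%, 27.8%, 22.8%, 28.8% and 28.3% of all genes. At an unadjusted p under 0.05 there were 2, 4, 4, 3 and 3 of the 9, all lower than sham, beside 31.9%, 38.1%, 35.2%, 39.2% and 38.4% of all genes, so that these counts were near the background. At 26 min, 2 of the 9 were DEGs (3.77% of all genes) and 3 passed the adjusted p-value (30.1% of all genes). At 28 min, 7 of the 9 were DEGs (8.48% of all genes) and all 9 passed (48.2% of all genes). At 30 min, 6 of the 9 were DEGs (10.7% of all genes) and 8 passed (52.3% of all genes). Every one of these calls was a decrease. The median log2 fold change of the 9 against sham went from -0.23 at 16 min and -0.44 at 26 min to -1.43 at 28 min and -1.11 at 30 min, while the median over all genes was 0 at 28 min and 0.000772 at 30 min. The number called at 26 min fell to 1 without sham replicate 1 or without 26 min replicate 2 or 3.

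**Figure D1:**
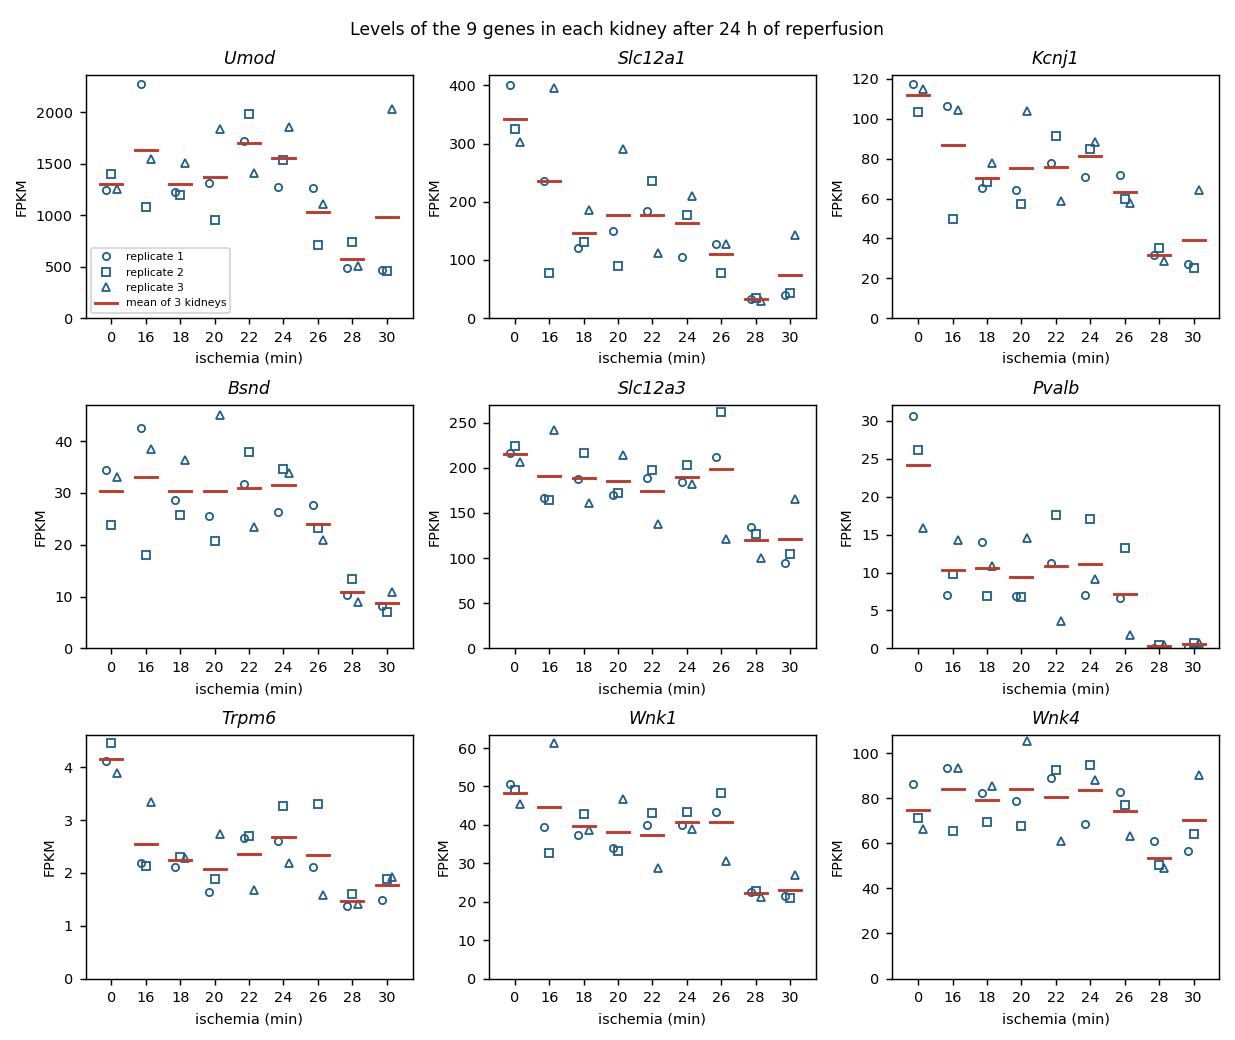
FPKM (y axis, linear from 0, a scale of its own for each gene) of the 9 genes in each of the 27 kidneys by ischemia time in min (x axis); open symbols are kidneys, marked by replicate number, and red bars are means of 3 kidneys. Slc12a1 stood at 28.8 to 35.2 FPKM at 28 min against 303 to 400 in sham kidneys. Replicate 3 at 30 min lay well above its group for Umod, Slc12a1, Kcnj1, Slc12a3, Wnk1 and Wnk4.

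Slc12a1 encodes NKCC2, the cotransporter blocked by loop diuretics (ENSMUSG00000027202, chr2:125152505-125230002, plus strand, GRCm38). It was at 400, 324 and 303 FPKM in the sham kidneys and at 32.8, 35.2 and 28.8 FPKM at 28 min. The 3 kidneys at 28 min lay close together and far below sham, at 9.42% of the sham mean. The change was -3.49 ± 0.54 (log2, SE; adjusted p = 2.43e-05, limma). At 30 min the kidneys were at 39.3, 43.2 and 142 FPKM, of which the third lay within the range of the shorter times (78 to 396 FPKM over 18 kidneys). The change at 30 min was -2.43 ± 0.54 (adjusted p = 0.000787, limma), and -3.07 without replicate 3. Already at 16 to 26 min, 17 of 18 kidneys were below the lowest sham kidney, with a mean of 49.2% of the sham mean. The kidneys at 16 min were spread over 236, 77.9 and 396 FPKM, and the fitted changes at 16 to 24 min, -1.37 to -0.85, did not pass (adjusted p 0.0654 to 0.311, limma). At 26 min, with 127, 78.1 and 128 FPKM, the change of -1.71 ± 0.54 passed (adjusted p = 0.0215, limma), but not without sham replicate 1 (adjusted p = 0.0717) or 26 min replicate 2 (adjusted p = 0.0823). The means ran, from high to low, in the order 0, 16, 20, 22, 24, 18, 26, 30 and 28 min, and among neighbours in this order only 30 and 28 min had ranges that did not overlap.

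Kcnj1 encodes ROMK, the potassium channel that keeps NKCC2 supplied with potassium (ENSMUSG00000041248, chr9:32372493-32399197, plus strand). It was at 118, 103 and 115 FPKM in sham kidneys, at 71.9, 59.8 and 57.6 FPKM at 26 min and at 31.7, 35.1 and 28.8 FPKM at 28 min. These groups did not overlap with each other. The change against sham was -1.83 ± 0.31 at 28 min (adjusted p = 6.57e-05, limma) and -1.61 ± 0.31 at 30 min (adjusted p = 0.000199). At 30 min the kidneys were at 27.2, 25.2 and 64.5 FPKM, so that replicate 3 again lay apart. In all, 21 of the 24 clamped kidneys were below the lowest sham kidney.

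Bsnd encodes barttin, which brings chloride channels to the basolateral membrane in the loop, the distal tubule and intercalated cells (ENSMUSG00000025418, chr4:106483456-106492283, minus strand). Its pattern had a single step. It was at 34.4, 23.9 and 32.99 FPKM in sham kidneys and had a mean of 98.7% of the sham mean at 16 to 26 min, with 5 of 18 kidneys below and 6 above the sham range. At 28 min the kidneys were at 10.3, 13.4 and 9.04 FPKM, and at 30 min at 8.24, 7 and 10.8 FPKM. All 6 lay below every other kidney of the series, replicate 3 at 30 min included. The change against sham was -1.52 ± 0.29 at 28 min (adjusted p = 0.000208, limma) and -1.79 ± 0.29 at 30 min (adjusted p = 2.71e-05).

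Umod encodes uromodulin, the protein that thick ascending limb cells secrete in large amounts into the urine (ENSMUSG00000030963, chr7:119462711-119479282, minus strand). Its fitted changes at 16 to 24 min were -0.12 to 0.21 and did not pass (adjusted p 0.731 to 1, limma), and 9 of the 18 kidneys at 16 to 26 min were above the highest sham kidney. It was at 1247, 1405 and 1255 FPKM in sham kidneys, at 1267, 715 and 1108 FPKM at 26 min and at 483, 741 and 502 FPKM at 28 min. The 28 min kidneys were all below sham, and the highest of them overlapped the lowest at 26 min. The change against sham at 28 min was -1.43 ± 0.38 (adjusted p = 0.00347, limma). At 30 min it was at 463, 454 and 2034 FPKM, so that 2 kidneys were the lowest of all 27 and the third was higher than all but 1. The change at 30 min, -1.05 ± 0.38 (adjusted p = 0.0237, limma), was -1.66 without replicate 3, and it missed the threshold without sham replicate 2 (-0.98, adjusted p = 0.0689) or 30 min replicate 1 or 2, without normalization between kidneys (-0.79, adjusted p = 0.121), after rescaling to a constant sum (adjusted p = 0.122), or in a fit of the compared groups only (adjusted p = 0.158).

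Among the distal tubule genes, Slc12a3 encodes NCC, the cotransporter blocked by thiazides (ENSMUSG00000031766, chr8:94329201-94366214, plus strand). It was at 217, 224 and 206 FPKM in sham kidneys, at 134, 126 and 99.9 FPKM at 28 min and at 94.0, 105 and 166 FPKM at 30 min. All 6 late kidneys were below the sham range, at 55.7% and 56.3% of the sham mean, and 13 of the 18 kidneys at 16 to 26 min were below it too. The change was -0.79 ± 0.25 at 28 min (adjusted p = 0.0135, limma) and -0.73 ± 0.25 at 30 min (adjusted p = 0.0194), both short of a DEG. At 30 min it was -1.03 without replicate 3, and it missed the adjusted p-value without 30 min replicate 1 or 2 or sham replicate 2 (adjusted p = 0.108, 0.0804 and 0.0552), and at 28 min without 28 min replicate 3 (adjusted p = 0.0733). At 16 to 24 min its changes of -0.30 to -0.17 did not pass (adjusted p 0.408 to 0.707).

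Pvalb encodes parvalbumin, a calcium-binding protein of the early distal convoluted tubule (ENSMUSG00000005716, chr15:78191114-78206400, minus strand). It was at 30.6, 26.1 and 15.8 FPKM in sham kidneys, at 6.60, 13.3 and 1.70 FPKM at 26 min, at 0.06, 0.49 and 0.43 FPKM at 28 min and at 0.18, 0.69 and 0.65 FPKM at 30 min. The 6 late kidneys were at 1.35% and 2.10% of the sham mean and below every other kidney, replicate 3 at 30 min included. At the depth inferred above, 1 fragment of Pvalb is worth 0.0615 FPKM, which makes these values 1, 8 and 7 fragments at 28 min and 3, 11 and 11 at 30 min. The change against sham was -4.28 ± 0.53 at 28 min (adjusted p = 1.59e-06, limma) and -4.11 ± 0.53 at 30 min (adjusted p = 1.66e-06), and -6.02 at 28 min with a pseudocount of 0.1 FPKM. At 16 to 26 min 16 of 18 kidneys were below the lowest sham kidney, with a mean of 41.0% of the sham mean. The changes of -1.38 to -1.19 at 16 to 24 min did not pass (adjusted p 0.0637 to 0.111), and that of -1.97 ± 0.53 at 26 min did (adjusted p = 0.00771, limma), but not without 26 min replicate 3 (-1.33, adjusted p = 0.0630) or in a fit of the compared groups only (adjusted p = 0.0569). Parvalbumin is also a protein of fast muscle. The 8 skeletal muscle markers summed to 1.01 to 2.20 FPKM in sham kidneys and 1.26 to 5.09 FPKM in the late ones, with Myh4 at 0 in all sham kidneys, and their part in the level of Pvalb was not tested.

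Trpm6 encodes the magnesium channel of the distal convoluted tubule (ENSMUSG00000024727, chr19:18749983-18892511, plus strand). It was the only one of the 9 to pass the adjusted p-value at 16 to 24 min. Its fitted changes there were smaller than those of Pvalb and Slc12a1 on this scale, which understates changes at low FPKM. With a pseudocount of 0.1 FPKM Trpm6 was a DEG at 18 and 20 min. It was at 4.12, 4.46 and 3.89 FPKM in sham kidneys and at 2.18, 2.14 and 3.35 FPKM at 16 min. All 24 clamped kidneys were below the lowest sham kidney. The changes at 16 to 24 min were between -0.88 and -0.63 (adjusted p 0.00192 to 0.0137, limma). At 28 min it was at 1.38, 1.61 and 1.41 FPKM (-1.14 ± 0.18, adjusted p = 3.11e-05, limma), and at 30 min at 1.49, 1.88 and 1.93 FPKM (-0.99 ± 0.18, adjusted p = 0.000111). The change at 30 min lay just inside the limit of a DEG and passed it without sham replicate 1 or 3 or without 30 min replicate 2 or 3 (-1.02 without the last). It passed that limit also with a pseudocount of 0.1 FPKM (-1.30), after rescaling to a constant sum (-1.03) and in a fit of the compared groups only (-1.02). Among neighbours in the order of means only 0 and 24 min had ranges that did not overlap.

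The kinases differed in pattern. Wnk1 encodes a kinase whose short form, made only in the kidney, lacks most of the kinase domain and is made mainly in the distal convoluted tubule (ENSMUSG00000045962, chr6:119923969-120038672, minus strand). The gene-level values cannot tell its 26 annotated transcripts apart. It was at 50.7, 49.1 and 45.4 FPKM in sham kidneys, at 22.4, 22.8 and 21.3 FPKM at 28 min and at 21.4, 20.9 and 27.04 FPKM at 30 min. The late kidneys lay below all 18 kidneys at 16 to 26 min (28.8 to 61.4 FPKM), and the change against sham was -1.21 ± 0.20 at 28 min (adjusted p = 4.94e-05, limma) and -1.11 ± 0.20 at 30 min (adjusted p = 9.47e-05). Wnk4 encodes a kinase in which mutations can cause familial hyperkalemic hypertension (ENSMUSG00000035112, chr11:101260567-101277409, plus strand). It was at 86.5, 71.3 and 66.5 FPKM in sham kidneys, at 61.1, 50.5 and 49.0 FPKM at 28 min and at 56.6, 64.0 and 90.5 FPKM at 30 min. Its 28 min kidneys were below sham (-0.54 ± 0.21, adjusted p = 0.0393, limma), while those at 30 min overlapped sham (-0.10 ± 0.21, adjusted p = 0.724, or -0.33 and adjusted p = 0.205 without replicate 3, and 0.05 without replicate 1). The Wnk4 change at 28 min missed the adjusted p-value without sham replicate 1 or 2 or 28 min replicate 2 or 3 (adjusted p 0.0681 to 0.145), and without normalization (adjusted p = 0.0614). Wnk4 and Slc12a3 were also those of the 9 that missed a moderated F test over all 9 times (adjusted p = 0.210 and 0.0992, limma), which 55.1% of all genes passed. Exons of Umod and Wnk4 overlap an antisense transcript on the opposite strand (Gm44588 and Gm11615), and the sources used here do not say whether counting used the strand.

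**Figure D2:**
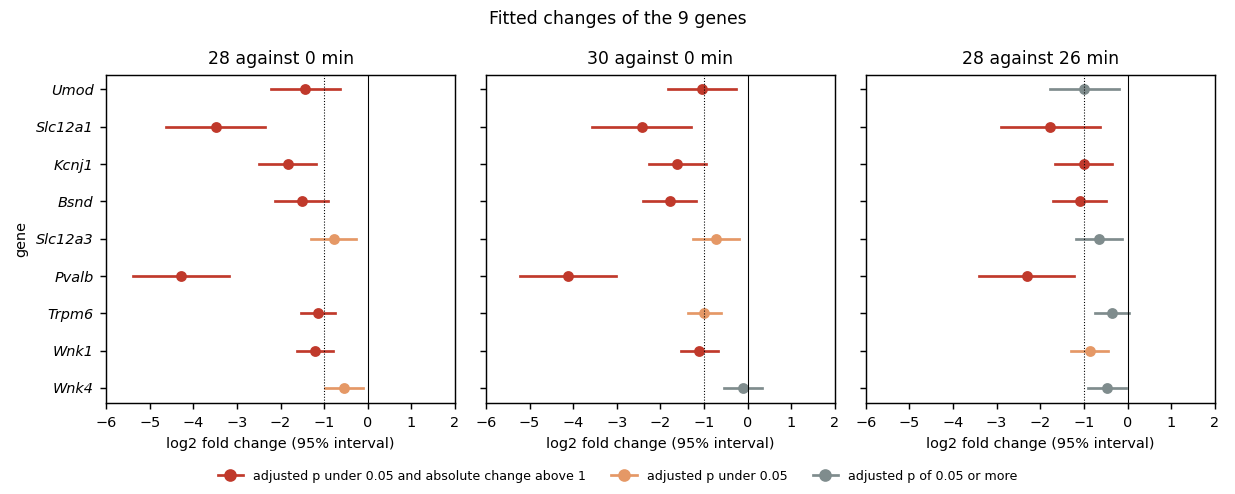
Fitted log2 fold change (x axis, with 95% interval) of the 9 genes (y axis) at 28 against 0 min, 30 against 0 min and 28 against 26 min; red marks a DEG, orange an adjusted p under 0.05 without the fold, grey neither, and the dotted line is a change of -1. Pvalb and Slc12a1 lay farthest from 0 in all panels, at -4.28 and -3.49 for 28 against 0 min.

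The step between 26 and 28 min was tested directly. Of the 9 genes, 4 were DEGs (Slc12a1, Kcnj1, Bsnd and Pvalb; 1.5% of all genes) and 5 passed the adjusted p-value, with Wnk1 (19.3% of all genes), and 8 had an unadjusted p under 0.05 (31% of all genes), all lower at 28 min. Pvalb had the largest change of the 9, -2.32 ± 0.53 (adjusted p = 0.00438, limma), then Slc12a1 with -1.77 ± 0.54 (adjusted p = 0.0273). Bsnd changed by -1.10 ± 0.29 (adjusted p = 0.0115), Kcnj1 by -1.002 ± 0.31 (adjusted p = 0.0297) and Wnk1 by -0.87 ± 0.20 (adjusted p = 0.00482). Umod at -0.99 ± 0.38 (adjusted p = 0.0717), Slc12a3 at -0.66 ± 0.25 (adjusted p = 0.0736), Wnk4 at -0.47 ± 0.21 (adjusted p = 0.128) and Trpm6 at -0.36 ± 0.18 (adjusted p = 0.194) did not pass. The median of the 9 was -0.99, beside 0.00366 over all genes. The number of DEGs was 1 without 26 min replicate 1 or without 28 min replicate 3, with Pvalb left, and 2 without 28 min replicate 1. Slc12a1 lost its call without 26 min replicate 1 or 3 or any kidney at 28 min (adjusted p up to 0.0839), and Kcnj1 without 26 min replicate 1 or 2 or 28 min replicate 1 or 3 (adjusted p up to 0.0977). Kcnj1 also missed the fold of a DEG without normalization (-0.96) and in a fit of the compared groups only (-0.98). From 28 to 30 min none of the 9 was a DEG (1.05% of all genes) or passed the adjusted p-value (13.2% of all genes), and none had an unadjusted p under 0.05 (26.8% of all genes). Between neighbouring times from 16 to 26 min, and at 26 against 16 min, none of the 9 passed either, at an adjusted or unadjusted p under 0.05. No gene of the whole table passed the adjusted p-value in limma in these 6 comparisons, and 2.46% to 9.44% of all genes had an unadjusted p under 0.05.

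With the 6 kidneys at 28 and 30 min set against the 18 at 16 to 26 min, all 9 genes passed the adjusted p-value (52.1% of all genes) and 5 were DEGs (3.67% of all genes), all lower in the late kidneys. This split, used again for the ratios below, was chosen with earlier results of these data known. Its p-values are thus not those of a split fixed in advance. The DEGs were Pvalb (-2.81 ± 0.30), Slc12a1 (-1.72 ± 0.31), Bsnd (-1.52 ± 0.17), Umod (-1.23 ± 0.22) and Kcnj1 (-1.10 ± 0.18). Wnk1 changed by -0.80 ± 0.12, Slc12a3 by -0.56 ± 0.14, Wnk4 by -0.36 ± 0.12 and Trpm6 by -0.31 ± 0.11. The calls of Wnk4 and Trpm6 were lost without 30 min replicate 1 (adjusted p = 0.0772 and 0.0640), and that of Wnk4 also without 30 min replicate 2 or 28 min replicate 3. Kcnj1 missed the fold of a DEG without 30 min replicate 2 (-0.98). Since all 9 passed the adjusted p-value, the 5 DEGs were simply those with a change beyond 1 on this scale. Of them Pvalb is a gene of the distal tubule, and Bsnd is not a gene of the loop alone. The order of the lowest pair rests on the pseudocount, since as a ratio of mean FPKM Trpm6 changed more (0.681) than Wnk4 (0.766). The median of the 9 was -1.10, beside 0.01 over all genes.

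Ratios of one gene to another were compared within the same kidney. They were taken as log2 of (FPKM + 1) and tested in the 6 late kidneys against the 18 at 16 to 26 min with a two-sided exact permutation test over 134596 regroupings, adjusted over 4 ratios. The ratio of the distal to the loop cotransporter, Slc12a3 to Slc12a1, was on a linear scale 0.542, 0.690 and 0.681 in sham kidneys, and 4.10, 3.58 and 3.47 at 28 min. The loop cotransporter was thus the higher of the pair in all sham kidneys and the lower in all kidneys at 28 min. At 30 min the ratio was 2.39, 2.42 and 1.17. The log2 ratio was 1.38 ± 0.65 (SD, n = 6) in the late kidneys and 0.27 ± 0.64 (n = 18) at 16 to 26 min, a difference of 1.11 (permutation p = 0.00154, adjusted p = 0.00205), with 3 of the 6 late kidneys above the highest of the 18.

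The ratio of Umod to Slc12a1, which are products of the same cells, was 3.12, 4.33 and 4.14 in sham kidneys on a linear scale, 14.8, 21.01 and 17.4 at 28 min and 11.8, 10.5 and 14.3 at 30 min. Replicate 3 at 30 min did not stand apart here, since both genes were high in it. The log2 ratio was 3.83 ± 0.36 (n = 6) in the late kidneys, 3.17 ± 0.39 (n = 18) at 16 to 26 min and 1.93 ± 0.26 (n = 3) in sham kidneys, and the late kidneys exceeded those at 16 to 26 min by 0.66 (permutation p = 0.000483, adjusted p = 0.000966). Of the 18 kidneys at 16 to 26 min, 1 was within the sham range, 16 min replicate 3 at 1.96. With 3 sham kidneys against 3, the smallest p a permutation test can give is 0.1, so single times were not tested.

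The ratio of Pvalb to Slc12a3, both of the distal convoluted tubule, separated the late kidneys fully, at -7.00 to -5.96 on the log2 scale against -5.50 to -3.42 at 16 to 26 min and -3.63 to -2.78 in sham kidneys. The difference was -2.19 (permutation p = 7.43e-06, the smallest these regroupings can give; adjusted p = 2.97e-05). Since the late levels of Pvalb lay below the pseudocount of 1 FPKM, the size of this difference was set by it, and was -3.65 with a pseudocount of 0.1 FPKM and -4.14 with none. The ratio of Wnk4 to its target Slc12a3 was -0.95 ± 0.24 (n = 6) in the late kidneys and -1.20 ± 0.24 (n = 18) at 16 to 26 min, a difference of 0.24 (permutation p = 0.0438, adjusted p = 0.0438). That call was lost without any 1 of 11 kidneys, among them all 3 at 30 min and 28 min replicate 3 (adjusted p up to 0.126), and with quantile-normalized values (adjusted p = 0.10005).

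**Figure D3:**
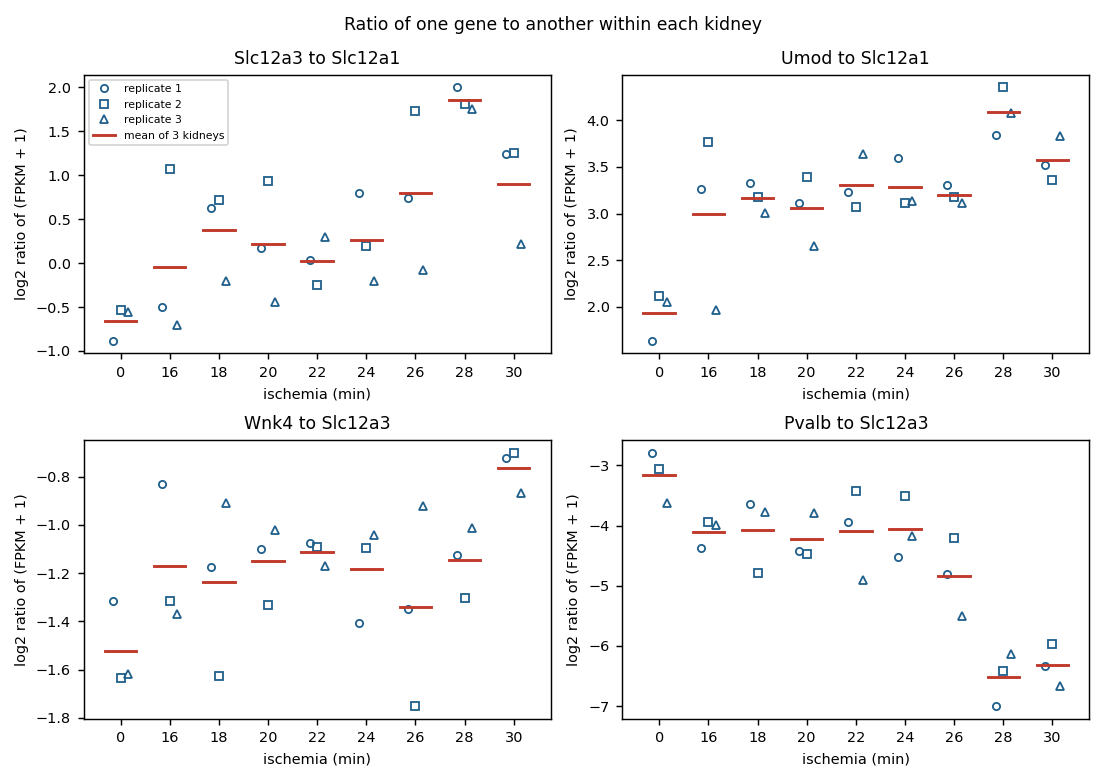
Log2 ratio of (FPKM + 1) of one gene to another (y axis) in each kidney by ischemia time in min (x axis); open symbols are kidneys, marked by replicate number, and red bars are means of 3. The ratio of Umod to Slc12a1 was 1.64 to 2.11 in sham kidneys and 3.36 to 4.35 in the 6 late ones, and that of Pvalb to Slc12a3 did not overlap between the 6 late kidneys and the 18 at 16 to 26 min.

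Other genes of the same segments were read from lists. Of 12 further thick ascending limb genes, 7 were DEGs lower and 1 higher at 28 against 0 min, with a median of -1.51, and 6 were DEGs lower at 30 min. Of all genes, in either direction, 8.48% were DEGs at 28 min and 10.7% at 30 min. Egf, the epidermal growth factor precursor made in the loop and distal tubule, had the largest change of the list, from 312 FPKM ± 58.9 in sham kidneys to 4.86 ± 0.455 at 28 min (-5.78 ± 0.60, adjusted p = 2.24e-07, limma). Casr, the calcium-sensing receptor of the loop, went from 16.6 to 4.94 FPKM (-1.67, adjusted p = 7.14e-06) and Ptger3, a prostaglandin E2 receptor, from 32.1 to 6.32 FPKM (-2.27, adjusted p = 3.53e-05). The member that rose was Cldn14, a tight junction claudin that blocks the paracellular path of calcium in the loop, from 0.133 FPKM ± 0.126 in sham kidneys to 3.89 ± 2.12 at 28 min (1.97 ± 0.31, adjusted p = 2.32e-05). At 30 min it was at 1.01 FPKM ± 0.516, above sham (0.77, adjusted p = 0.0395).

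Of 12 further genes of the distal convoluted and connecting tubules, 11 passed the adjusted p-value as lower at 28 min and 6 of them were DEGs, with a median of -1.04. At 30 min 10 passed and 7 were DEGs. Of all genes, in either direction, 48.2% passed and 8.48% were DEGs at 28 min, and 52.3% and 10.7% at 30 min. Without normalization between kidneys the DEGs were 5 at both times, and Fxyd2 was not among them. Calb1, the calbindin that carries calcium through these cells, was at 152 FPKM ± 29.8 in sham kidneys and 164 ± 83.4 at 26 min, and went to 37.5 ± 16.8 at 28 min (-2.09 against sham, adjusted p = 0.000339, limma). Slc8a1, the sodium-calcium exchanger, went from 8.07 to 2.80 FPKM (-1.34, adjusted p = 0.00651). Trpv5, the apical calcium channel, was at 6.61 FPKM in sham kidneys and 7.79 at 28 min (adjusted p = 0.687).

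The list of the WNK pathway moved in both directions, with 5 of 12 lower and 2 higher at 28 min by the adjusted p-value, 1 DEG and a median of -0.05. Without normalization 2 were lower and 2 higher. Of all genes 48.2% passed and 8.48% were DEGs, in both directions, so that the counts of this list were near the background. The DEG was Klhl3, the adaptor that marks WNK kinases for degradation, at 12.3, 13.9 and 10.6 FPKM in sham kidneys and 2.81, 2.70 and 2.22 FPKM at 28 min (-1.98 ± 0.22, adjusted p = 3.72e-07, limma). It had fallen already at 16 min, to 6.62, 5.46 and 10.5 FPKM (-0.78). Oxsr1, the kinase OSR1 below the WNKs, rose from 11.4 to 17.8 FPKM at 28 min (0.45, adjusted p = 3.53e-06) and 20.4 FPKM at 30 min (0.68, adjusted p = 1.03e-08). Stk39, which encodes SPAK, was at 19.2, 15.4 and 22.5 FPKM at 0, 28 and 30 min and passed at 28 min (-0.43, adjusted p = 0.0430) but not at 30 min (adjusted p = 0.651). Sgk1, the aldosterone-induced kinase, rose at 30 min from 31.8 to 87.5 FPKM (1.49, adjusted p = 0.00253).

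Of the 7 other SLC12 cotransporters measured, 3 were lower and 1 higher at 28 min by the adjusted p-value, with a median of -0.08. Without normalization these were 1 lower and 2 higher, and either way the share that passed was not far from the 48.2% of all genes. Slc12a4, the potassium-chloride cotransporter KCC1 found in most cells, rose from 4.58, 5.38 and 6.21 FPKM in sham kidneys to 16.3, 15.02 and 14.5 FPKM at 28 min (1.198 ± 0.10, adjusted p = 1.48e-08, limma). Among 10 transcription factor genes of the distal nephron, 7 passed as lower at 28 min and 3 were DEGs, with a median of -0.60. Of all genes, in either direction, 48.2% passed and 8.48% were DEGs. Without normalization 5 were lower, 1 was higher and 2 were DEGs, with Sim1 no longer among them. Esrrb, an orphan nuclear receptor, went from 14.7 to 2.73 FPKM (-2.16, adjusted p = 7.13e-05) and Irx1 from 28.4 to 7.47 FPKM (-1.91, adjusted p = 0.000514). At 30 min Irx1 was at 7.05, 9.28 and 28.3 FPKM, with replicate 3 apart from the other pair as for Umod.

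**Figure D4:**
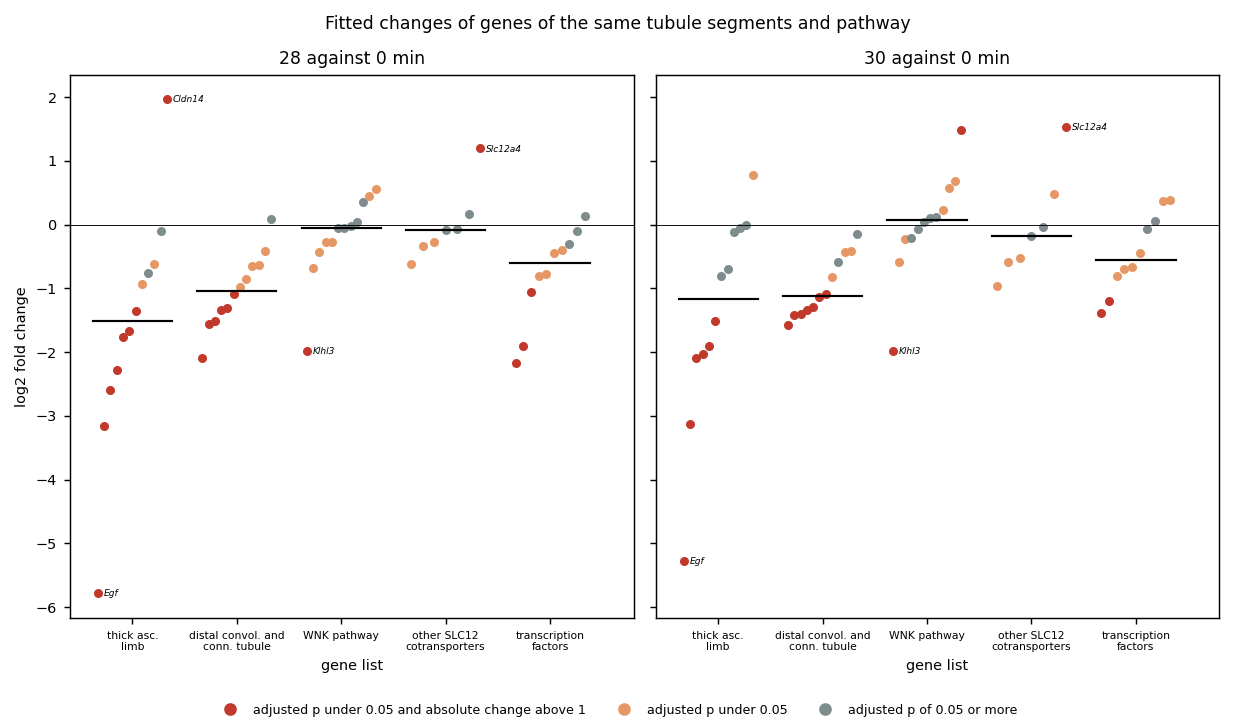
Fitted log2 fold change (y axis) of the genes of 5 lists (x axis) at 28 against 0 min and 30 against 0 min; points are genes, red for DEGs (symbols are given for Egf, Cldn14, Klhl3 and Slc12a4), orange for an adjusted p under 0.05 without the fold, grey for neither, and black lines are list medians. The median was -1.51 for the thick ascending limb list and -0.05 for the WNK list at 28 min.

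Markers of other cells moved too, but not all at the same times. The summed FPKM of 8 proximal tubule markers was 3065 to 3524 in sham kidneys, 2044 to 3643 at 16 to 26 min, 1261 to 1419 at 28 min and 712 to 844 at 30 min, with 4 of 8 DEGs lower at 28 min and 7 of 8 at 30 min. That of 6 collecting duct principal cell markers was 402 to 594 in sham kidneys and 261 to 342 at 28 min (2 of 6 DEGs lower), and that of 5 intercalated cell markers 94.8 to 109 and 44.2 to 67.2 (2 of 5 DEGs lower). The 5 injured tubule markers summed to 15.8 to 90.1 in sham kidneys, 70.7 to 1218 at 16 to 26 min and 2144 to 2264 at 28 min. All 5 were DEGs at 28 min, and 4 of 5 were DEGs, higher than sham, already at 16 min (2.25% of all genes). None of 5 endothelial markers and 1 of 4 podocyte markers passed at 28 min, the latter higher, and 3 of 7 leukocyte markers passed, all higher. The leukocyte markers summed to 9.33 to 13.4 FPKM in sham kidneys, 13.8 to 43.0 at 16 to 26 min and 34.9 to 43.9 at 28 min. At 30 min 4 of 5 endothelial and 2 of 4 podocyte markers passed, all higher. Of the 7 leukocyte markers, 4 were DEGs higher than sham at 30 min and 1 passed as lower. Their sums were 47.3 to 53.1 FPKM at 30 min. Of all genes, 48.2% passed and 8.48% were DEGs at 28 min, and 52.3% and 10.7% at 30 min. The leukocyte count at 28 min and the podocyte count at 30 min were thus near the background. The part of these other cells in the levels of the 9 genes was not tested. In replicate 3 at 30 min the summed collecting duct markers were 687 FPKM beside 321 and 335 in its group. The thick ascending limb list was at 454 beside 216 and 225. The distal convoluted and connecting tubule list was at 9090 beside 5165 and 6220, above the sham sums of 7754 to 8589. The proximal tubule markers were at 712 beside 844 and 775, and the injured tubule markers at 4918 beside 2518 and 3336.

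The 3 genes most like each of the 9 were found by the Pearson correlation of quantile-normalized log2(FPKM + 1) over the 27 kidneys, among 12345 other genes with a mean of at least 1 FPKM. These correlations describe kidneys that share their ischemia times and are given without a test. Umod was most like Irx1 (r = 0.947), Ppp1r1a (0.932) and Pou3f3 (0.925). Slc12a1 was most like Ppp1r1b (0.978), Cyfip2 (0.973) and Wfdc15b (0.973), and Kcnj1 like Tmem72 (0.982), Ppp1r1a (0.971) and Gpx6 (0.970). For Bsnd these were Ndufb11 (0.972), Rhcg (0.966) and Ngef (0.966). Rhcg encodes an ammonia channel of the distal nephron. For Slc12a3 they were Scn4b (0.920), Ogdh (0.899) and Wnk1 (0.895), the last of which is itself one of the 9. For Wnk1 they were Egf (0.963), Tmem52b (0.962) and Abca13 (0.959), and for Wnk4 Itpkb (0.937), Scnn1a (0.935) and Sv2a (0.915). Scnn1a encodes a subunit of the epithelial sodium channel. Trpm6 was most like Adssl1, AW549877 and Cyp2d12 (0.904, 0.904 and 0.901) and Pvalb like Gstk1, Inmt and Isoc2b (0.966, 0.961 and 0.957), none of which is in the lists used here. Among the 9 themselves the correlation was highest for Slc12a1 with Kcnj1 (0.963) and lowest for Umod with Trpm6 (0.436).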

How the data were processed

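RNA-Seq values of 27 mouse kidneys were used, 3 per ischemia time, grouped by the labels. For each gene symbol the authors deposited FPKM in every kidney, with 2 decimals. The submitters' processing notes name Bowtie2, RSEM and DESeq2 and the build GRCm38.p6, without roles or versions. FPKM are estimates per transcript length, so reads shared between paralogs or isoforms were split by the authors' program, and levels depend on the other genes of the kidney. The paper names the unit RPKM.

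The log2(FPKM + 1) values were quantile normalized and fitted in limma 3.58.1 (R 4.3.3) with 1 mean per time over the 18188 genes above 0 in at least 3 kidneys. All kidneys shared 1 estimate of the spread. Replicates are different mice, and the labels give no batch. Ratios, levels and figures were computed in Python 3.11.15 (scipy 1.17.1, matplotlib 3.10.9). Gene positions came from GENCODE M21 and promoters from RefSeq, both on GRCm38. The fit and the permutation test were tested on simulated data. Intervals around the inferred depth cover counting steps only. Named were the 9 genes, the 3 genes most like each, and genes of the lists, of which some are not reported here. The 9 genes and the lists were chosen with earlier results of these data known.

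The fit was repeated with a pseudocount of 0.1 FPKM, no normalization, rescaling to a constant sum, a filter of at least 1 FPKM in 3 kidneys, no filter, only the groups compared, a trended prior, a replicate block and leaving out each kidney. Leaving out replicate 3 at 0, 16 and 30 min together was added after seeing the data.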

Additional observations from a re-analysis of the deposited data

Results flagged for a closer look

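In the 6 kidneys at 28 and 30 min, 1 kidney, replicate 3 at 30 min, lay far from the other 5 for 5 of the 9 genes by Dixon's test at the 95% level. Its values were 2033.56 FPKM for Umod, 142.13 for Slc12a1, 64.51 for Kcnj1, 27.04 for Wnk1 and 90.49 for Wnk4. Chance alone picks out about 1 in 20 such groups. The 5 values come from 1 kidney and are not independent. The same kidney was not set apart for Slc12a3, Bsnd, Trpm6 or Pvalb.

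The effect against sham differed between 28 and 26 min, by the direct limma test of 28 against 26 min, for 5 of the 9 genes. The difference was -1.77 for Slc12a1, -1.002 for Kcnj1, -1.10 for Bsnd, -0.87 for Wnk1 and -2.32 for Pvalb on the log2 scale.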

How the results depend on the processing

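The counts of DEGs among the 9 genes at 28 and 30 against 0 min, 30 against 28 min, 26 against 16 min and late against 16 to 26 min stayed within 1.5 times under every alternative run, and no DEG was a rise. At 16 min the count was 1, where the report has 0, without the 3 kidneys left out together. At 18 min it was 1 with a pseudocount of 0.1 FPKM, 1 with the filter of 1 FPKM, 2 in the compared groups only and 1 without the 3 kidneys. At 20 min these were 1, 1, 1 and 1. At 22 min it was 1 with the filter and 1 in the compared groups only, and at 24 min 2 in the compared groups only and 1 without the 3 kidneys. These extra DEGs were Slc12a1, Pvalb or Trpm6, and without the 3 kidneys Slc12a1 each time. At 26 min it was 1 in the compared groups only. Leaving out 1 kidney gave 0 to 3 DEGs at 20 min, 0 to 1 at 22 min, 1 to 2 at 26 min and 1 to 4 for 28 against 26 min. The log2 ratio of Wnk4 to Slc12a3 was 0.20 with quantile-normalized values (adjusted p = 0.10005), and 0.19 to 0.31 with 1 kidney left out. Signs turned only for changes that had not passed. Wnk4 at 26 against 0 min was 0.0214 after rescaling to a constant sum and -0.15 to 0.0424 with 1 kidney left out, Slc12a3 at 26 min -0.38 to 0.18, and Wnk4 at 30 min -0.33 to 0.0503. The cause of these moves was not tested.

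Replicate numbers did not pair the kidneys: over 108 pairs of kidneys with the same number the median correlation of deviations was -0.00875, beside -0.00999 over 216 pairs with different numbers. With a replicate block the counts were 7 at 28 min, 6 at 30 min, 4 for 28 against 26 min and 5 for late kidneys, as without it. Depth limits Pvalb in late kidneys, at 1 to 11 inferred fragments.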
